A study of Homo sapiens with 6 samples.

Results

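The PPP family phosphatases PP2A, PP3 (calcineurin), PP4, PP5 and PP6 were examined through the transcripts of their subunits. The members were the 32 genes whose symbols begin with PPP2 to PPP6 followed by C (catalytic, 8 genes) or R (scaffold and regulatory, 24 genes), out of 17534 genes in the deposited table. RNA sequencing compared 3 libraries labelled Sh-PPM1G with 3 libraries labelled Sh-NC. Both groups are cells labelled NCI-H1703, which the labels give as lung squamous cell carcinoma. The first group carried a short hairpin RNA (shRNA) against PPM1G, a phosphatase of the PP2C family. The second is called control here, as its label is not spelled out and the series text calls it wild-type. The number of hairpins and of clones is not given in the sources used here.

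PPP family phosphatases remove phosphate from serine and threonine and are unrelated in sequence to the metal-dependent PP2C enzymes. Their catalytic subunits are few and act on many substrates, and partner proteins direct each enzyme to its targets. PP2A joins a scaffold (A), a catalytic (C) and an interchangeable regulatory (B) subunit, and is widely regarded as restraining growth in tumour cells. Calcineurin pairs a catalytic A with a calcium-binding B subunit, PP4 and PP6 use regulatory subunits of their own, and PP5 carries its regulatory domain in the same chain.

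PPM1G itself stood at 82.2, 87.8 and 85.1 TMM-scaled FPKM (FPKM is a read count per length and sequencing depth, here rescaled between libraries by edgeR's TMM method) in PPM1G shRNA libraries 1 to 3, against 151, 139 and 147 in control libraries 1 to 3. The groups did not overlap, and PPM1G fell to 0.585 of its control level (log2 fold change −0.77, SE 0.033, adjusted p = 3.35e-20 in edgeR's quasi-likelihood test). Library totals were 31337553 to 35838246 counts, and libraries within a group differed by more than sampling noise (chi-square per degree of freedom 2.69 to 6.44). Of 6 squamous markers, SOX2 stood at 4.24 ± 0.25 TMM-scaled FPKM in PPM1G shRNA and 9.06 ± 0.61 in control libraries (SD, n = 3 each), and the other 5 averaged at most 0.218 in either group. The levels of these 5 go against the squamous label, so the cells are described here by their label only. The 5 adenocarcinoma and alveolar markers were mixed and name no other type. NKX2-1 stood at 50.8 ± 2.7 in PPM1G shRNA and 47.8 ± 3.1 in control libraries and NAPSA at 14.3 ± 0.26 in PPM1G shRNA and 1.42 ± 0.15 in control libraries, while SFTPB averaged at most 0.0129 and SFTPC was at 0. The 6 fibroblast markers summed to 908 to 923 in PPM1G shRNA libraries and 1567 to 1616 in control libraries. The sum was mostly VIM, and PDGFRA and DCN averaged at most 0.0437. The markers were mixed, as VIM (log2 fold change −0.88) and COL1A2 (−0.69) fell while COL1A1 (1.15) and PDGFRB (1.26) rose. The part of these differences in the results was not tested. Leukocyte, endothelial and neuroendocrine markers averaged at most 0.725 in either group, apart from CD68 at 332 in PPM1G shRNA and 742 in control libraries.

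The phosphatase subunits changed in both directions, with more falls than rises. PPP2R5D, PPP2R5C, PPP4C, PPP5C, PPP3CB, PPP2R1B and PPP2R3B-2 fell by at least 1.5-fold, and PPP4R1 was the single member that rose by as much. Of the 32 members, 29 passed the filter on low counts, and 10 of these rose and 17 fell at an adjusted p under 0.05 (edgeR). Among all 13060 genes tested 82.9% passed, 41.5% as rises and 41.3% as falls, so a passing call by itself is common in this comparison. The 1 rise and 7 falls of at least 1.5-fold stand beside 22.8% of all genes tested as such rises and 22.7% as such falls. In a test for a change beyond 1.2-fold, 6 members rose and 13 fell, beside 31.8% of all genes rising and 31.8% falling. With plain library totals in place of TMM scaling, 6 members rose and 8 fell in that test. In limma on log2(FPKM + 1), 4 members fell by at least 1.5-fold. The shares of all genes under these alternatives are not given here. The median log2 fold change was −0.29 over the 29 members and 0.015 over all genes tested. The libraries of the groups did not overlap for 26 of the 29 members, beside 83.7% of all genes tested. Summed over the members, the level was 511 to 514 TMM-scaled FPKM in PPM1G shRNA libraries and 631 to 641 in control libraries. In bulk RNA, fewer cells of a type and less RNA per cell cannot be told apart.

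**Figure D1:**
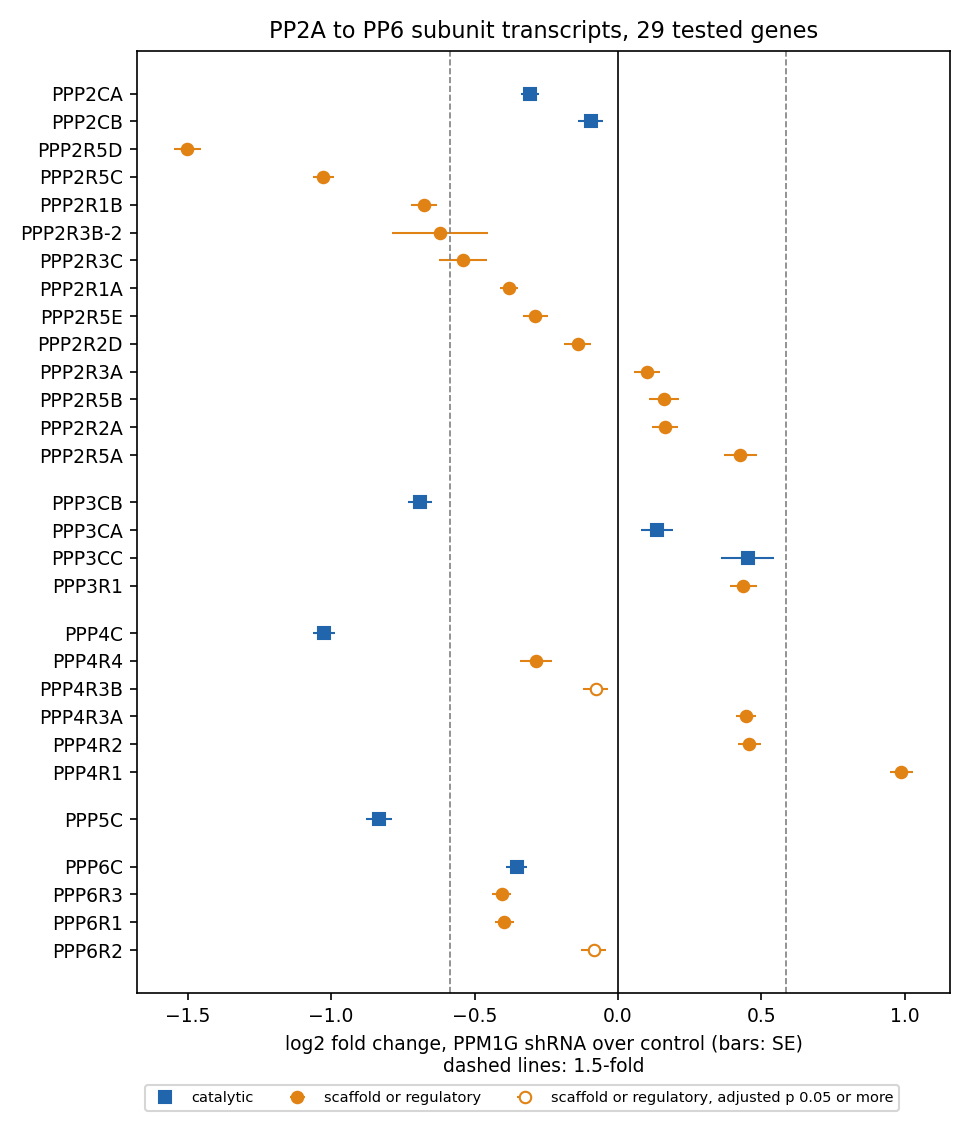
The log2 fold change of PPM1G shRNA over control (horizontal axis) is plotted for the 29 tested subunit genes, grouped from PPP2 at the top to PPP6 at the bottom. Squares are catalytic and circles scaffold or regulatory subunits, open symbols have an adjusted p of 0.05 or more, bars are standard errors and dashed lines mark 1.5-fold. PPP2R5D lies farthest left (−1.50) and PPP4R1 farthest right (0.99).

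By type of subunit, 2 of the 8 catalytic genes rose and 6 fell, with a median log2 fold change of −0.33. Of the 21 regulatory genes tested, 8 rose, 11 fell and 2 did not pass, with a median of −0.14. These counts stand beside 41.5% of all genes tested rising and 41.3% falling. In the test for a change beyond 1.2-fold, 1 catalytic gene rose and 5 fell, and 5 regulatory genes rose and 8 fell. Of all genes, 31.8% rose and 31.8% fell in that test. Log2 fold changes ranged over −1.50 to 0.43 in PP2A, −0.69 to 0.45 in calcineurin, −1.02 to 0.99 in PP4 and −0.41 to −0.085 in PP6. The 3 members that were not tested had at most 2 counts in any library. PPP2R2B, a B55 subunit best known from the brain, had 0, 1 and 0 counts in PPM1G shRNA libraries and 1, 1 and 0 in control libraries. PPP2R2C, another B55 subunit, had 1, 2 and 2 counts in PPM1G shRNA libraries and 2, 1 and 0 in control libraries. PPP4R3C, a PP4 regulatory gene, had 0 counts in all 6 libraries.

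Upstream sequence is shown for the 4 members that changed by at least 1.5-fold and have a single window in RefSeq's promoter table, as the 250 bases before the start site in that table (GRCh38.p14, 5′ to 3′ on the gene's strand), so that the promoters of fallen and risen subunits can be set side by side. Capitals mark matches, on either strand and counting overlaps, to any of 8 words. These were the E2F words TTTGGCGC and TTTCGCGC, the ETS word CCGGAAG, the cyclic AMP response element TGACGTCA, the ATF4 word TGATGCAA, the NF-Y word CCAAT, the SP1 word GGGCGG (GC box) and the NRF1 word.
PPP2R5D, chr6:42984320-42984569, plus strand: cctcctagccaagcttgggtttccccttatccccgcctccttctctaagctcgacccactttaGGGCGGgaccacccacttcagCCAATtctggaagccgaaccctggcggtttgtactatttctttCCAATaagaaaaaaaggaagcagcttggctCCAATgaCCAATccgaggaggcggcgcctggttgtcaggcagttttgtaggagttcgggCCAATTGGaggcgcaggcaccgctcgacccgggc
PPP4C, chr16:30075744-30075993, plus strand: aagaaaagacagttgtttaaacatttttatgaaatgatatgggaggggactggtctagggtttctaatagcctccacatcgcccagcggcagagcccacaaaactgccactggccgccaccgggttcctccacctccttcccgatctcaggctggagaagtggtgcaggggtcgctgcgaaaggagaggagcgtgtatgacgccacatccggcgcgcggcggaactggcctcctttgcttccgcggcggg
PPP2R1B, chr11:111766390-111766639, minus strand: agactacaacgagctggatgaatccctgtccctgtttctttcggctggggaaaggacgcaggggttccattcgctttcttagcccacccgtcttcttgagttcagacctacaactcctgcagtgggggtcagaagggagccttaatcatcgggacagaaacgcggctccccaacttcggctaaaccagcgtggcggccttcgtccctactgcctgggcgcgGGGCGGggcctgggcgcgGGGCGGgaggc
PPP4R1, chr18:9614560-9614809, minus strand: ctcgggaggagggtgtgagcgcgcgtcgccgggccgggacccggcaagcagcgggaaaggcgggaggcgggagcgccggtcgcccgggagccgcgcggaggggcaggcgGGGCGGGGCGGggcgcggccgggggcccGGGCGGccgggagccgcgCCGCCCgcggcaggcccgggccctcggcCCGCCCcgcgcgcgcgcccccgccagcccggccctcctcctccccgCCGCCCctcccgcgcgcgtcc

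The window of PPP2R5D, which fell, holds 6 matches to CCAAT, including a pair that overlaps on opposite strands, and 0.105% of all 35116 windows hold as many. The window of PPP4R1, the single risen gene shown, is 88.4% G or C and holds 6 GC boxes. Its start site lies inside the RefSeq span of the gene (chr18:9546794-9617199), so this window, unlike the other 3 shown, is not upstream of the whole gene. That of PPP4C, which fell, is 58% G or C, the same as the median of all windows, and holds none of the words. The table has 42 windows for 26 of the 32 members. A GC box was found in 27 of these windows (64.3%, against 42.6% of all windows) and CCAAT in 16 (38.1%, against 32% of all). Windows of PPP4R4, which fell, and of PPP3R1 and PPP2R3A, which rose, each held at least as many GC boxes as that of PPP4R1. The cyclic AMP word was in 2 windows (4.76%, against 1.65% of all), those of PPP2CA and PPP2R2D, and the ETS word in 2 (4.76%, against 8.52% of all). The letters of the E2F, ATF4 and NRF1 words were in no member's window, and in 0.55%, 0.439%, 0.772% and 1.03% of all windows in the order listed above. A match describes letters and not a bound site.

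The catalytic subunits moved unequally. PPP2CA encodes the more abundant PP2A catalytic subunit and had 37.2, 38.1 and 36.2 TMM-scaled FPKM in PPM1G shRNA libraries 1 to 3, against 45.4, 45.6 and 46.8 in control libraries 1 to 3. All 3 PPM1G shRNA libraries lay below all 3 control libraries, and PPP2CA fell (log2 fold change −0.31, SE 0.031, adjusted p = 1.5e-10, edgeR). PPP2CB encodes a nearly identical protein and had 28.1, 28.5 and 27.5 in PPM1G shRNA libraries, against 29.9, 31.02 and 29.04 in control libraries. These groups lay close together without overlapping, and the fall barely passed (log2 fold change −0.096, SE 0.045, adjusted p = 0.0496, edgeR). That call was lost in 12 of 14 alternative analyses, and with plain library totals its log2 fold change was 0.004 (adjusted p = 0.931).

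PPP4C, the single PP4 catalytic gene (chr16:30075994-30085376), had 52.4, 49.5 and 50.4 TMM-scaled FPKM in PPM1G shRNA libraries, against 99.2, 103 and 108 in control libraries. The groups were far apart, and PPP4C fell to 0.4915 of its control level (log2 fold change −1.02, SE 0.039, adjusted p = 1.05e-21, edgeR). PPP5C, which binds the chaperone HSP90 through its tetratricopeptide repeats (chr19:46347087-46390975), had 21.1, 21.2 and 20.8 in PPM1G shRNA libraries, against 36.3, 36.5 and 39.6 in control libraries. It fell to 0.562 of its control level, with no overlap (log2 fold change −0.83, SE 0.045, adjusted p = 1.92e-17, edgeR). PPP6C, whose enzyme limits Aurora A activity in mitosis, had 18.1, 18.8 and 18.9 in PPM1G shRNA libraries, against 24.0, 23.9 and 23.5 in control libraries. Its fall was smaller and the groups were again apart (log2 fold change −0.35, SE 0.038, adjusted p = 3.29e-10, edgeR).

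The 3 calcineurin catalytic genes went in different directions. PPP3CB had 13.8, 13.7 and 14.8 TMM-scaled FPKM in PPM1G shRNA libraries, against 22.7, 23.0 and 22.6 in control libraries. It fell without overlap (log2 fold change −0.69, SE 0.041, adjusted p = 1.55e-16, edgeR). PPP3CC had 5.78, 6.01 and 5.87 in PPM1G shRNA libraries, against 4.52, 3.74 and 4.66 in control libraries. It rose, with the control libraries spread more widely (log2 fold change 0.45, SE 0.093, adjusted p = 5.26e-05, edgeR). PPP3CA had 8.29, 7.56 and 7.82 in PPM1G shRNA libraries, against 7.49, 7.38 and 6.65 in control libraries. The lowest PPM1G shRNA library lay just above the highest control library (log2 fold change 0.14, SE 0.056, adjusted p = 0.0266, edgeR). Without PPM1G shRNA replicate 1 the adjusted p was 0.143, without PPM1G shRNA replicate 3 it was 0.05 and without control replicate 3 it was 0.158. PPP3R1, the calcium-binding B subunit, rose to 22.3 ± 0.87 in PPM1G shRNA libraries, against 16.5 ± 0.76 in control libraries (SD, n = 3 each, log2 fold change 0.44).

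**Figure D2:**
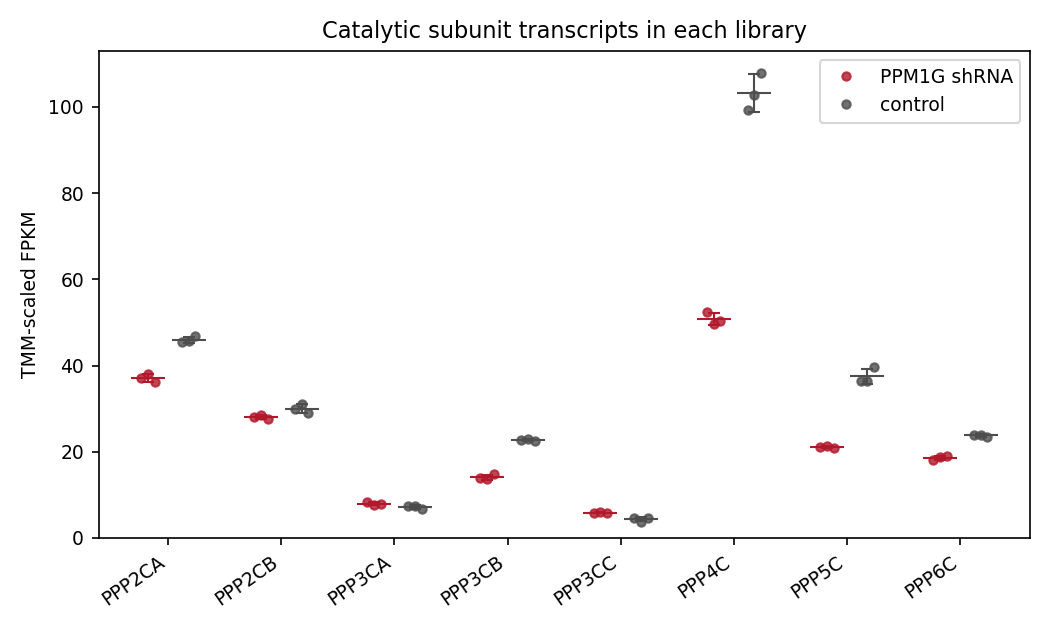
TMM-scaled FPKM (vertical axis) of the 8 catalytic subunit genes is plotted for each library, with PPM1G shRNA in red left of control in grey; horizontal lines are means and bars are SD. PPP4C shows the widest gap, with 49.5 to 52.4 in PPM1G shRNA libraries and 99.2 to 108 in control libraries.

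Ordered by mean level per length, the catalytic transcripts in PPM1G shRNA libraries ran PPP4C, PPP2CA, PPP2CB, PPP5C, PPP6C, PPP3CB, PPP3CA and PPP3CC. Control libraries had the same order, except that PPP5C stood above PPP2CB. Neighbours in each order had library values that did not overlap. PPP4C made up 27.7% ± 0.67 of the summed catalytic FPKM in PPM1G shRNA libraries and 37.6% ± 0.81 in control libraries (SD, n = 3 each). PPP2CA made up 20.2% ± 0.47 in PPM1G shRNA libraries and 16.7% ± 0.11 in control libraries, and PPP2CB 15.3% ± 0.23 in PPM1G shRNA libraries and 10.9% ± 0.51 in control libraries. Each of these 3 shares separated the groups, with p = 0.1 in a two-sided exact permutation test. That is the smallest p that 3 libraries against 3 allow, so no share could pass 0.05. In all, 33 shares within subunit groups were tested and 29 separated the groups. The 83.7% of all genes tested whose libraries did not overlap counts levels of single genes, so it is no direct background for shares. Shares within a subunit group depend on each other, and the PP2A and calcineurin catalytic genes entered more than once.

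Both PP2A scaffold genes fell. PPP2R1A, the main scaffold gene, had 32.1, 32.0 and 31.8 TMM-scaled FPKM in PPM1G shRNA libraries, against 40.5, 42.2 and 42.0 in control libraries. The groups did not overlap (log2 fold change −0.38, SE 0.031, adjusted p = 4.77e-13, edgeR). PPP2R1B, the minor scaffold gene (chr11:111688000-111766389), had 4.34, 4.02 and 4.27 in PPM1G shRNA libraries, against 6.72, 6.64 and 6.83 in control libraries. It fell more steeply, to 0.625 of its control level (log2 fold change −0.68, SE 0.045, adjusted p = 4.1e-15, edgeR). PPP2R1A made up 88.4% ± 0.43 of the scaffold FPKM in PPM1G shRNA libraries and 86% ± 0.32 in control libraries (SD, n = 3 each, exact permutation p = 0.1). PPP2R1B overlaps the protein-coding gene SIK2, and the strand setting of the counting is not given, so some reads could belong to either gene.

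Among the PP2A regulatory genes, the B56 genes PPP2R5D and PPP2R5C fell most. B56 subunits recognise a short motif in their substrates and bring PP2A to kinetochores, among other places. PPP2R5D (chr6:42984570-43012342) had 10.04, 10.3 and 9.99 TMM-scaled FPKM in PPM1G shRNA libraries, against 28.2, 28.2 and 29.3 in control libraries. It fell to 0.353 of its control level, the steepest change among the members (log2 fold change −1.50, SE 0.046, adjusted p = 2.2e-24, edgeR). PPP2R5D overlaps the protein-coding gene MEA1, with which it could share reads. PPP2R5C (chr14:101760573-101927992) had 14.9, 16.4 and 16.3 in PPM1G shRNA libraries, against 32.2, 32.5 and 32.4 in control libraries. Every PPM1G shRNA library lay near 0.491 of the control level (log2 fold change −1.03, SE 0.037, adjusted p = 1.94e-22, edgeR). PPP2R5E fell less (log2 fold change −0.29), while PPP2R5A, linked to turnover of the MYC protein, rose (0.43) and PPP2R5B rose slightly (0.16).

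The make-up of the B56 transcripts differed accordingly. PPP2R5D made up 17.1% ± 0.48 of the summed B56 FPKM in PPM1G shRNA libraries and 31.2% ± 0.51 in control libraries (SD, n = 3 each). PPP2R5C made up 26.8% ± 0.54 in PPM1G shRNA libraries and 35.3% ± 0.15 in control libraries. PPP2R5A made up 18.2% ± 0.69 in PPM1G shRNA libraries and 8.77% ± 0.19 in control libraries, and PPP2R5B 24% ± 0.24 in PPM1G shRNA libraries and 13.8% ± 0.48 in control libraries. PPP2R5E made up 13.9% ± 0.52 in PPM1G shRNA libraries and 10.9% ± 0.64 in control libraries. All 5 shares separated the groups (exact permutation p = 0.1 each, two-sided). A share is a ratio within a library, so it shows unequal change and not which gene moved.

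**Figure D3:**
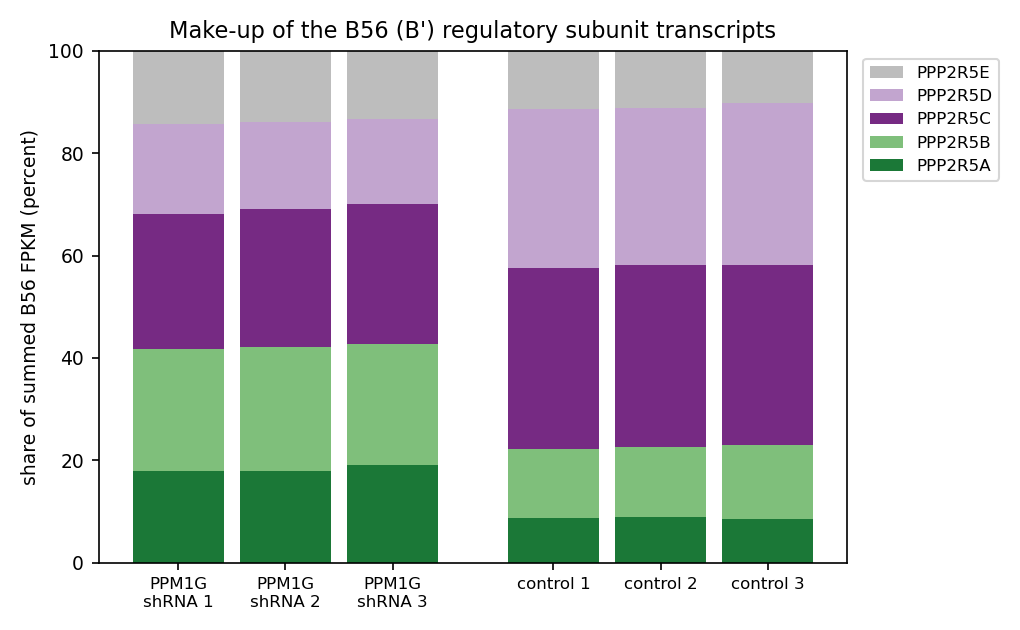
Each bar is a library (PPM1G shRNA on the left, control on the right), divided by the share of each B56 gene in the summed B56 FPKM in percent. PPP2R5C and PPP2R5D fill less of the PPM1G shRNA bars and PPP2R5A and PPP2R5B more, with PPP2R5D at 17.1% in PPM1G shRNA libraries and 31.2% in control libraries on average.

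The B55 genes changed little, and the 3 B'' genes changed to different degrees. B55 subunits act in mitotic exit and are restrained by ENSA and ARPP19 once the kinase MASTL has phosphorylated these. PPP2R2A, the most abundant B55 gene here, rose slightly (log2 fold change 0.16, SE 0.046) and PPP2R2D fell slightly (−0.14, SE 0.047). The PPP2R2D call was lost without PPM1G shRNA replicate 3 (adjusted p = 0.0609) and with plain library totals (0.425), both in edgeR. Among the B'' genes, PPP2R3C fell (log2 fold change −0.54, SE 0.083) to just short of 1.5-fold. PPP2R3A passed at a log2 fold change of 0.10 (adjusted p = 0.0447, edgeR) although its groups overlapped. Its adjusted p was 0.268 without PPM1G shRNA replicate 1, 0.0872 without PPM1G shRNA replicate 3, 0.0975 without control replicate 1 and 0.12 without control replicate 3. The entry PPP2R3B-2 had 1.06, 1.92 and 1.56 TMM-scaled FPKM in PPM1G shRNA libraries, against 2.49, 1.93 and 2.61 in control libraries. The groups all but touched, and the fall passed (log2 fold change −0.62, SE 0.17, adjusted p = 0.0025, edgeR). PPP2R3B lies in the region that the X and Y chromosomes share, so how its reads were divided between copies is uncertain.

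In PP4 the catalytic gene fell while 3 of the 5 regulatory genes tested rose, beside 41.5% of all genes tested rising and 41.3% falling. PP4 acts in DNA repair and centrosome maturation, mostly as PPP4C with PPP4R2 and a PPP4R3 subunit, and PPP4R1 forms a separate complex with PPP4C. PPP4R1 had 27.8, 27.7 and 27.0 TMM-scaled FPKM in PPM1G shRNA libraries, against 13.9, 13.4 and 14.3 in control libraries. The groups were far apart and PPP4R1 rose 1.98-fold (log2 fold change 0.99, SE 0.041, adjusted p = 8.6e-21, edgeR). PPP4R1 overlaps the noncoding gene PPP4R1-AS1, and its transcribed pseudogene PPP4R1L is not among the counted genes. Whether reads of either were counted to PPP4R1 was not tested. PPP4R2 rose to 19.8 ± 0.21 in PPM1G shRNA libraries, against 14.4 ± 0.63 in control libraries (SD, n = 3 each). PPP4R3A, a substrate-recognition subunit, rose to 40.04 ± 0.82 in PPM1G shRNA libraries, against 29.4 ± 0.69 in control libraries (SD, n = 3 each). PPP4R3B, its paralog, did not pass (log2 fold change −0.078, SE 0.044, adjusted p = 0.0987, edgeR) and would have passed without control replicate 3 (adjusted p = 0.0207). PPP4R4 fell (log2 fold change −0.29, SE 0.054).

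**Figure D4:**
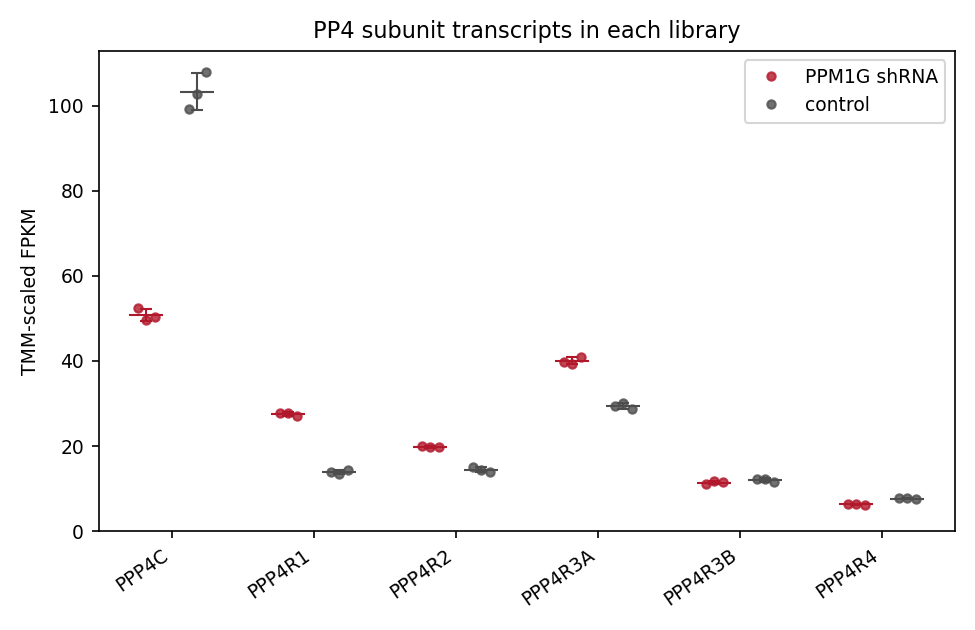
TMM-scaled FPKM (vertical axis) of the 6 tested PP4 genes is plotted for each library, with PPM1G shRNA in red left of control in grey; horizontal lines are means and bars are SD. PPP4C is lower and PPP4R1, PPP4R2 and PPP4R3A are higher in every PPM1G shRNA library than in any control library.

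Within each library, PPP4C was also set against regulatory genes of PP4, leaving out PPP4R4, which fell. The ratio of PPP4C to the sum of PPP4R1, PPP4R2, PPP4R3A and PPP4R3B was 0.531, 0.503 and 0.508 in PPM1G shRNA libraries, against 1.41, 1.47 and 1.57 in control libraries. The ratio of PPP4C to PPP4R1 alone was 1.85 ± 0.051 in PPM1G shRNA libraries and 7.45 ± 0.29 in control libraries (SD, n = 3 each). In PP6, where the groups overlapped, the ratio of PPP6C to PPP6R1, PPP6R2 and PPP6R3 was 0.273 ± 0.007 in PPM1G shRNA libraries and 0.277 ± 0.0087 in control libraries (exact permutation p = 0.5). The PP4 ratios, like those of B56, calcineurin and PP2A, gave the smallest possible p of 0.1. These 7 ratios were chosen after the values had been seen and compare transcripts, not complexes. PPP4C over PPP2CA was 1.37 ± 0.058 in PPM1G shRNA libraries and 2.25 ± 0.06 in control libraries. PPP2R5C and PPP2R5D over PPP2R5A and PPP2R5B was 1.04 ± 0.012 in PPM1G shRNA libraries and 2.94 ± 0.044 in control libraries. This B56 ratio leaves out PPP2R5E and sets the genes that fell most against those that rose, so its separation follows from the choice. The ratios of PPP4C to PP4 regulatory genes likewise set a gene that fell against PPP4R1, PPP4R2 and PPP4R3A, which rose, or PPP4R1 alone. Their separation also follows from the choice. Calcineurin A over B was 1.249 ± 0.064 in PPM1G shRNA libraries and 2.08 ± 0.071 in control libraries. PP2A catalytic over scaffold was 1.8 ± 0.04 in PPM1G shRNA libraries and 1.57 ± 0.022 in control libraries (SD, n = 3 each).

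Among the PP6 regulatory genes, which carry the SAPS domain, 2 fell and 0 passed as a rise. Of all genes tested, 41.3% fell and 41.5% rose. PPP6R1 fell (log2 fold change −0.40, SE 0.033) and PPP6R3 fell by a like amount (−0.41, SE 0.033). PPP6R2 did not pass (log2 fold change −0.085, SE 0.043, adjusted p = 0.0679, edgeR), and its adjusted p was 0.0282 without PPM1G shRNA replicate 2. PPP6C thus fell alongside 2 of its 3 regulatory genes. Reads could be shared with another protein-coding gene for 8 of the 32 members, among them PPP6R1 with TMEM86B and PPP6R2 with SBF1. Counting noncoding genes and pseudogenes too, 25 members overlap another gene.

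The partners of these phosphatases were followed through lists of named genes, whose counts stand beside the 41.5% of all genes tested that rose and the 41.3% that fell. Of 23 regulators of PP2A, 6 rose and 12 fell, with a median log2 fold change of −0.25; the 78.3% that passed lies below the 82.9% of all genes. SGO1 and SGO2, the shugoshins that hold PP2A-B56 at centromeres, fell with log2 fold changes of −3.42 (SE 0.12) and −2.47 (SE 0.075). SGO1 averaged 0.457 ± 0.12 TMM-scaled FPKM in PPM1G shRNA libraries and 4.86 ± 0.39 in control libraries (SD, n = 3 each). CIP2A, an inhibitor of PP2A, fell to 1.76 ± 0.22 in PPM1G shRNA libraries, against 9.85 ± 0.67 in control libraries (SD, n = 3 each). Some regulators outside the naming rule are given for their roles and were picked after their values had been seen. MASTL (log2 fold change −1.11), ENSA (−0.66) and ARPP19 (−0.25), which form the switch that restrains PP2A-B55, all fell. MID1 (0.73), a ubiquitin ligase that targets the PP2A catalytic subunit, BOD1 (0.64), an inhibitor of PP2A-B56 at kinetochores, and LCMT1 (0.40), which methylates the catalytic subunit, rose. The activator PTPA (0.027, adjusted p = 0.47) and the inhibitor SET (0.034, adjusted p = 0.299, both edgeR) did not pass. In the same list ANP32A (−0.75), ANP32B (−0.96), ANP32E (−1.33) and PPME1 (−0.27) fell, so the genes picked do not stand for the whole list.

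Calcineurin's partners had 3 rises and 12 falls among 17 tested, with a median log2 fold change of −0.51. PPIA, the cyclophilin through which cyclosporin blocks calcineurin, fell to 332 ± 3.9 TMM-scaled FPKM in PPM1G shRNA libraries, against 746 ± 12 in control libraries (SD, n = 3 each). NFATC2, a transcription factor that calcineurin activates, fell with a log2 fold change of −1.14 (SE 0.05). AKAP5, an anchoring protein, had a log2 fold change of −2.46 (SE 0.41) at levels of at most 0.147 on average. The HSP90 and co-chaperone list of PP5 had 0 rises and 7 falls among 9, with a median of −0.76. HSP90AA1 (−1.74), STIP1 (−1.67) and AHSA1 (−1.59) fell most, alongside the fall of PPP5C.

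STRIPAK is a large complex around PP2A, and 5 of its 14 tested genes rose and 6 fell (median log2 fold change −0.04). The falls numbered 2 with plain library totals, 3 without control replicate 1 and 3 without control replicate 2. CTTNBP2 fell (−0.95, SE 0.21) at levels of at most 0.334 TMM-scaled FPKM on average, and CTTNBP2NL (0.48, SE 0.044) and STRIP2 (0.44, SE 0.029) rose. Integrator recruits PP2A to RNA polymerase II, and 7 of its 15 genes rose and 8 fell (median −0.15). Of the subunits that contact PP2A, INTS6 rose (0.96, SE 0.048) and INTS8, named outside the rule, fell (−0.61, SE 0.041). INTS6L, the paralog of INTS6 and also named outside the rule, fell (−0.82, SE 0.10). INTS12 rose (0.95, SE 0.068) and INTS1 fell (−0.97, SE 0.032). Of 7 partners of PP4 and PP6, 4 rose and 2 fell (median 0.16). AURKA, the mitotic kinase that PP6 counters, fell to 4.38 ± 0.12 TMM-scaled FPKM in PPM1G shRNA libraries, against 41.2 ± 1.3 in control libraries (SD, n = 3 each). ANKRD44, an ankyrin-repeat partner of PP6, fell (−1.20, SE 0.12), and CCDC6, a partner of PP4, rose (0.38, SE 0.035). The 3 catalytic genes of PP1, a phosphatase of the same family, all fell, with log2 fold changes of −1.06 for PPP1CC, −0.32 for PPP1CA and −0.13 for PPP1CB.

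**Figure D5:**
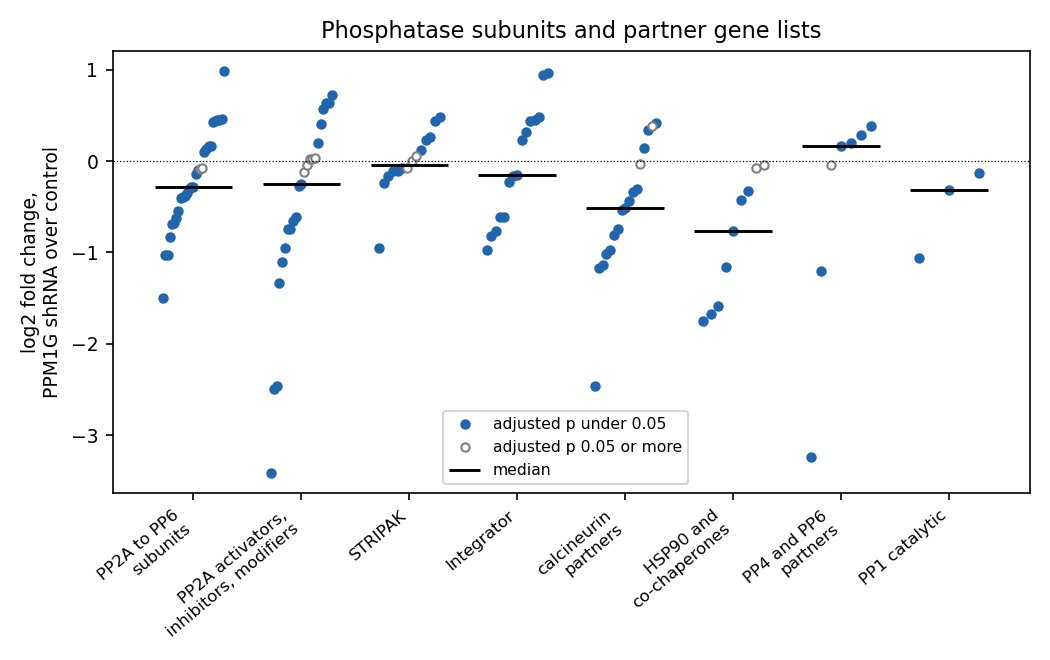
Each point is the log2 fold change of PPM1G shRNA over control (vertical axis) of a tested gene in the phosphatase subunits and 7 partner lists; open points have an adjusted p of 0.05 or more and lines mark medians. The median is −0.29 for the subunits and lowest, at −0.76, for HSP90 and co-chaperones.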

How the data were processed

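The authors deposited counts (whole numbers, not normalized, by their values) and FPKM values of 17534 genes in 6 libraries. Each deposited FPKM equals the count divided by the library total and by a length that is constant for the gene. The build named in the submitters' processing notes is GRCh38, and aligner, counting program, annotation and strand setting are not stated in the sources used.

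Members were the 32 rows whose identifier matched the names of PP2A to PP6 catalytic and regulatory genes. Members, lists and tests were chosen with earlier results of these data known. All 13060 genes passing edgeR's expression filter (default minimum count 10) were fitted with edgeR 4.0.16 (TMM scaling, robust quasi-likelihood, group as the only term) in R 4.3.3. P-values were adjusted by Benjamini and Hochberg's method across these genes, and 0.05 was the threshold. A standard error is the absolute log2 fold change over the square root of F. A second test on the same fit asked for a change beyond 1.2-fold. The fit was tested on simulated data. Levels are FPKM multiplied by the TMM rescaling of each library, called TMM-scaled FPKM. Totals were 31337553 to 35838246 counts per library. The labels do not state separate cultures, so p-values measure the spread between these libraries, which may be technical. Alternatives used DESeq2 1.42.0, limma 3.58.1 on log2(FPKM + 1) and log2(FPKM + 0.1), other scalings and filters, a replicate block, and leaving out each library.

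Values in every library were given, by rule, for the catalytic and PP2A scaffold subunits and for other members past the threshold with at least a 1.5-fold change. From each partner list the rule took up to 3 passing genes, those with the largest fold change in either direction. Partner genes named outside the rule are marked in the text as such. Gene positions and promoter windows came from RefSeq (GRCh38.p14). All 32 members matched it by Entrez ID.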

Additional observations from a re-analysis of the deposited data

How the results depend on the processing

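Each member was refitted under 14 alternatives. Of the 27 calls, those of PPP2CB, PPP2R3A, PPP3CA and PPP2R2D were lost in at least 1 alternative. PPP2CB passed in 2 of 14 and reversed to a log2 fold change of 0.004 with plain library totals and of 0.005 in limma with either pseudocount. The falls of at least 1.5-fold numbered 4 in limma on log2(FPKM + 1), 5 in limma on log2(FPKM + 0.1) and 5 with plain library totals, which both limma fits also use. PPP2R1B and PPP2R3B-2 dropped out with plain library totals, and PPP3CB (−0.56) in addition with the pseudocount of 1. In the minimum-fold test, falls numbered 8 with plain library totals. A minimum fold of 1.5 left 1 rise and 6 falls, beside 2439 rises and 2499 falls among all 13060 genes tested. For the minimum-fold and 1.5-fold counts under other scalings, the shares of all genes are not given here. Plain library totals moved the median of all genes to 0.115, so small changes near 0 depend on the scaling; the cause was not tested. Leaving out each library gave 8 to 10 rises and 15 to 18 falls among the members, while 79.8% to 82% of all genes tested passed. PPP2CB lost its call without any of the PPM1G shRNA libraries (adjusted p = 0.0948, 0.0674 and 0.163) and without control replicates 1 (0.0789) and 2 (0.188), in edgeR.

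The replicate numbers did not pair the libraries: correlations of same-numbered deviations were 0.014, −0.02 and 0.004. With the number as a replicate block, 10 members rose and 16 fell, while 82.7% of all genes tested passed. The call on PPP2CB was lost in that fit (adjusted p = 0.0564, edgeR). PPM1G stood at −0.77, and the partner lists held 24 rises and 50 falls.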
